A study of Homo sapiens with 11 samples.

Results

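Broad H3K4me3 peaks are stretches of at least 3000 bp that carry trimethylation of histone H3 at lysine 4 and show no overlap with H3K27me3, the Polycomb mark. In the Ewing sarcoma line SK-N-MC 796 of 16089 H3K4me3 peaks met both conditions. Of 797 peaks of that width 1 overlapped H3K27me3 and was left out. The study mapped chromatin by ChIP-seq in SK-N-MC, an established line that carries the EWSR1::FLI1 fusion, with a wildtype genotype and no treatment given in the labels of every library. Targets were the histone marks H3K4me3, H3K27ac, H3K4me1 and H3K27me3, the factor FLI1, and HDAC2, MTA2, RBBP4 and CHD4, subunits of the NuRD remodelling and deacetylase complex. Each of these 9 targets had 1 peak list from 1 sample, CHD4 was precipitated through a Flag tag whose introduction into the cells the labels do not describe, and the 2 input libraries were not analysed here.

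H3K4me3 is placed by the SET1 and MLL methyltransferases of the COMPASS family, mainly at CpG-rich starts of active genes. Most starts carry a short H3K4me3 domain around the first nucleosomes, and a minority carry a long domain that runs into the gene. In other cell types such long domains have been described at cell identity genes and at tumour suppressor genes.

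The members were chosen by H3K4me3 peak width and by the absence of H3K27me3, so width and height are given as a description. The broad peaks were 3000 to 10833 bp wide with a median of 3476 bp, and the 15003 narrower peaks without H3K27me3 had a median of 1156 bp. The broad peaks were 5.04% of H3K4me3 peaks without H3K27me3 and held 13.9% of their base pairs. A width of at least 5000 bp was reached by 70 of them, at least 7000 bp by 16 and at least 10000 bp by 3. The median fold enrichment at the summit, a value of the authors' peak caller like all folds given here, was 21.4 in broad peaks and 16.0 in narrower ones. Broad peaks were thus not simply the tallest ones, since 87 of 796 (10.9%) stood among the upper 5% of H3K4me3 peaks by fold enrichment. Just inside the threshold lay the peaks at MBTD1 and UTP18, ZNF580, and HIRA and MRPL40 (3002 bp each), SRP54 (3001 bp) and GRP (3000 bp). Just outside it lay the peaks at CEP63 and ANAPC13 (2996 bp), DCAF5 (2995 bp), FBXL17 and MFF (2994 bp each) and PCF11 (2993 bp).

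The cell type was checked by markers with an H3K4me3 peak of any width within 1 kb of a start. Markers without a listed start were placed by either annotated end, among them GLI1, KCNAB3, TWIST1 and COL1A1. Of 7 Ewing sarcoma markers 6 had one, with CD99 lacking one. None of the 6 blood markers or the 4 muscle markers had one, and neither did SOX10 or PRRX1 among the 6 neural crest and mesenchyme markers. Among 5 epithelial markers only KRT18 had one, and among 5 neuronal markers only TUBB3. No marker of blood, muscle, epithelium or neurons lay in a broad peak, while NKX2-2, NR0B1 and GLI1 among the Ewing markers and TFAP2A among the crest markers did.

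Starts under broad peaks ranged from CpG-dense to nearly CpG-free. The 250 bases before the start are shown for 6 broad members picked to span that range, read on the coding strand from RefSeq promoters of GRCh38.p14, with each CpG in capitals. BMPR2 (36 CpG), a BMP receptor gene, lies at chr2:202376077-202376326 on the plus strand, NKX2-2 (22 CpG) at chr20:21522690-21522939 on the minus strand, CAV1 (18 CpG) at chr7:116524759-116525008 on the plus strand, IGF2BP3 (15 CpG) at chr7:23470492-23470741 on the minus strand, TFAP2B (5 CpG) at chr6:50818621-50818870 on the plus strand and LIPI (1 CpG) at chr21:14210956-14211205 on the minus strand.
BMPR2: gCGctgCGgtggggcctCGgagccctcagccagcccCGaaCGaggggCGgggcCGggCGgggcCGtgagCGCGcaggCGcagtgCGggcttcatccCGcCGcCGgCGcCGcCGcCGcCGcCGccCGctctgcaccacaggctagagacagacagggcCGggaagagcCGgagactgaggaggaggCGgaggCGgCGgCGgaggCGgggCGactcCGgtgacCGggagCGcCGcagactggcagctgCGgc
NKX2-2: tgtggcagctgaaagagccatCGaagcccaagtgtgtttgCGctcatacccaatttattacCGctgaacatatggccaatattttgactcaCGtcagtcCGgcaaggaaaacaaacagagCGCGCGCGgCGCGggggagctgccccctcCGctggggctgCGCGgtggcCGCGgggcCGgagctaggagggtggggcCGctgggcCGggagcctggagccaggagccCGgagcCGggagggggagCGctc
CAV1: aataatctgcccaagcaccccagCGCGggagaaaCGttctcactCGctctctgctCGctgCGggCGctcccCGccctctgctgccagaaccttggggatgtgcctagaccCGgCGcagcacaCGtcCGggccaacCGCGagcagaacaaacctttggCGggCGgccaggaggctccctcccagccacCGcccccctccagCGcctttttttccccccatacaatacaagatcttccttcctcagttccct
IGF2BP3: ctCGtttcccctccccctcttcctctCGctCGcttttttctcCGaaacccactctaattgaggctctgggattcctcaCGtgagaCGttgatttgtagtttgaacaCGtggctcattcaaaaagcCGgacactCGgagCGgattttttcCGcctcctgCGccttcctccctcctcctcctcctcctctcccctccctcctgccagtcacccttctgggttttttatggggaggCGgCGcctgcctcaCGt
TFAP2B: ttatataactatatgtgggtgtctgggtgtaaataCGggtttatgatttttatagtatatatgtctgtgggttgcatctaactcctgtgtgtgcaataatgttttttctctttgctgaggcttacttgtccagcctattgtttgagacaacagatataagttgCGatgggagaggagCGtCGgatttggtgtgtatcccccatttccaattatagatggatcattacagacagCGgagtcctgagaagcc
LIPI: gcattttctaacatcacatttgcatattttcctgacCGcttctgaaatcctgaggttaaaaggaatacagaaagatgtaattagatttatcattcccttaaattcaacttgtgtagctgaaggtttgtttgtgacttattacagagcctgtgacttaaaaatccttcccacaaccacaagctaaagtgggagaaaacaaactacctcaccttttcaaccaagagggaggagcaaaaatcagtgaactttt

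BMPR2, NKX2-2 and CAV1 show runs of CpG, and those of IGF2BP3 are more scattered. The sequences before TFAP2B and LIPI are rich in A and T, with a GC content of 40.8% and 36.8%. Over 683 coding genes with a start in a broad peak, the median was 23 CpG in these 250 bases and the median GC content 65.6%. Over 7698 genes with a start in a narrower peak the medians were 22 CpG and 66.0%, and over 7462 genes with a start in no such peak they were 7 CpG and 57.6%. Base composition before the start was therefore close between broad and narrower peaks. The table lists several starts for some genes, and the most upstream start in a broad peak, then in a narrower one, was used.

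Short motifs were searched in the same 250 bases on both strands. TATAAA, the core of the TATA box that positions the general transcription machinery, occurred before 58 of 683 starts in broad peaks (8.49%, 95% Wilson interval 6.63 to 10.8%). It occurred before 320 of 7698 starts in narrower peaks (4.16%, 3.73 to 4.63%) and before 9.22% of all 15843 starts. Placed 21 to 40 bases before the start on the coding strand, where a TATA box works, it was found at 22 starts in broad peaks (3.22%, 2.14 to 4.83%), at 82 in narrower peaks (1.07%, 0.859 to 1.32%) and at 3.60% of all starts. Neither pair of intervals for broad and narrower peaks overlapped. NR0B1, an orphan nuclear receptor gene induced by the fusion, and HOXD13, a posterior HOX gene, are 2 of the 22, and their last 100 bases before the start are shown with TATAAA in capitals. The NR0B1 stretch lies at chrX:30309391-30309490 on the minus strand and the HOXD13 stretch at chr2:176092621-176092720 on the plus strand.
NR0B1: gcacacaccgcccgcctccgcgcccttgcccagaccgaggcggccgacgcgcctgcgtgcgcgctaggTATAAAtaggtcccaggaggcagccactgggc
HOXD13: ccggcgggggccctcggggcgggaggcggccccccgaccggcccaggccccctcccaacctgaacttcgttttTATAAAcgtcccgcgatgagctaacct

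The ETS core CCGGAAG, the letters FLI1 and other ETS factors prefer, was in 15.2% (12.7 to 18.1%) of promoters in broad peaks, 18.9% (18.0 to 19.8%) in narrower peaks and 12.01% of all. A repeat of 3 GGAA units, as in the microsatellites bound by the fusion, was in 0 of 683 promoters in broad peaks (upper Wilson bound 0.559%), in 3 of 7698 in narrower peaks and in 8 of all 15843. The GC box GGGCGG was in 68.2% of promoters in broad peaks, 72.0% in narrower peaks and 56.9% of all. The CCAAT box, letters CCAAT, was in 31.9%, 35.4% and 34.3% of the same sets in the same order.

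The widest broad peak measured 10833 bp (chr10:113846965-113857797) and covered the starts of DCLRE1A, a nuclease gene of DNA cross-link repair, and NHLRC2. Next came 10428 bp beside IRS2 (chr13:109775961-109786388), the gene of an adaptor of the insulin and IGF1 receptors, whose listed start lay 0.195 kb outside the peak. TFAP2B, an AP-2 transcription factor of the neural crest, had 10271 bp (chr6:50816645-50826915). TRHDE, a peptidase gene, had 9367 bp, FEZF1, a zinc finger gene of the developing forebrain, 9189 bp, and IGF2BP3, an oncofetal RNA-binding protein gene, 8114 bp. TFAP2A, the AP-2 gene that marks early neural crest, had 7886 bp, and NKX2-2, a homeodomain repressor known as a fusion target needed for Ewing transformation, 7582 bp (chr20:21516523-21524104). The list of the 20 widest was completed by SNX18, SNX5 with MGME1, LRFN5, FLRT2, PLXDC2, PTGER3, KMT2E, CPEB2, EBF3, SLCO5A1 and NRN1, between 7413 and 6372 bp, and by the MALAT1 locus. The 8368 bp peak there held no coding start, but it held the start of the long noncoding RNA MALAT1.

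**Figure D1:**
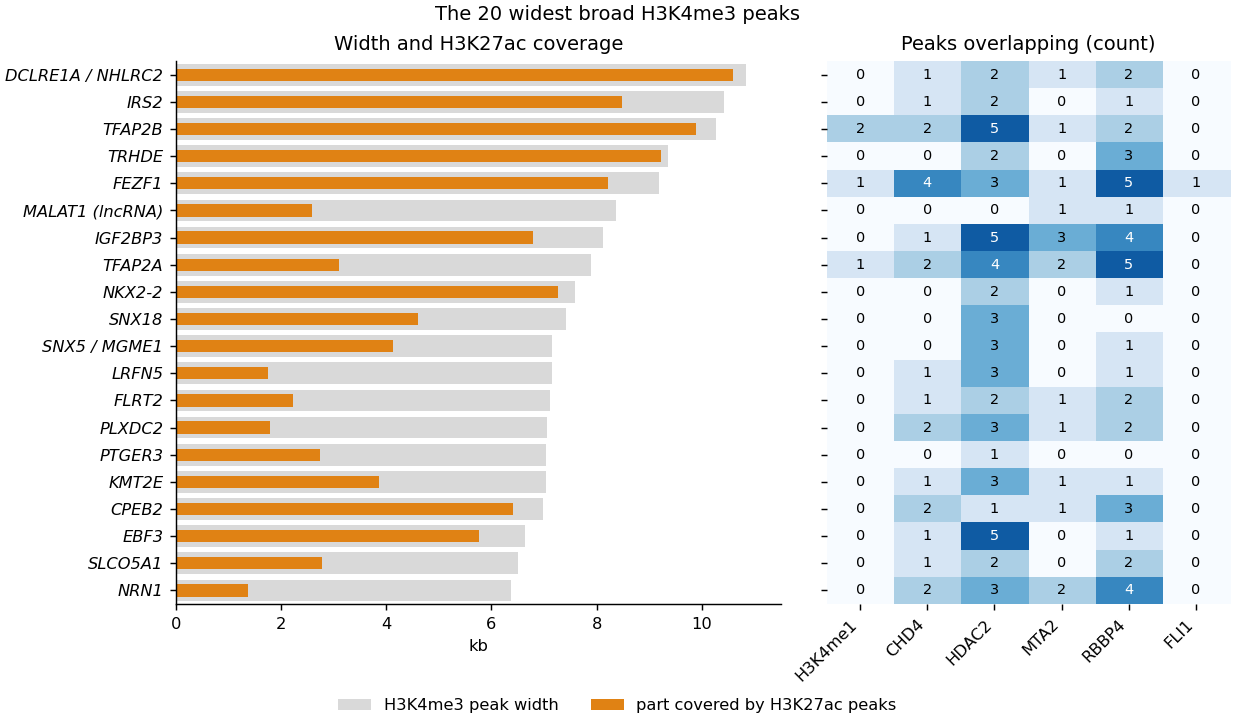
Left, width in kb of the 20 widest broad H3K4me3 peaks (grey bars) and the part of each covered by H3K27ac peaks (orange bars), from the widest at the top. Right, the number of peaks of each other target that overlap it; HDAC2 is present at 19 of 20, all 4 subunits at 10, H3K4me1 at 3 and FLI1 at 1 (FEZF1).

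These 20 loci differed widely in what they carried beside H3K4me3. H3K27ac peaks covered 98.5% of the TRHDE peak, 97.9% of the one at DCLRE1A, 96.3% at TFAP2B and 95.8% at NKX2-2. They covered 21.3% at NRN1, 24.5% at LRFN5, 25.3% at PLXDC2, 31.0% at MALAT1 and 39.3% at TFAP2A. NuRD peaks were dense at TFAP2A, with 2 CHD4, 4 HDAC2, 2 MTA2 and 5 RBBP4 peaks, and at IGF2BP3, with 1, 5, 3 and 4 in that order. They were sparse at SNX18 (3 HDAC2 peaks and no other subunit), at PTGER3 (1 HDAC2 peak) and at MALAT1 (1 MTA2 and 1 RBBP4 peak).

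Some loci held several broad peaks side by side. NKX2-2 has a pair of listed starts, and each lay in a broad peak of its own, 7582 and 5545 bp wide and 1.632 kb apart. MEIS1, a TALE homeobox gene, had 3 nearby, of 6364, 4588 and 4428 bp, the last 139.831 kb from a start, and each was 100% covered by H3K27ac. The 6364 bp peak overlapped no NuRD subunit, the 4588 bp peak 3 CHD4, 2 HDAC2 and 3 RBBP4 peaks, and the 4428 bp peak 6 CHD4, 4 HDAC2, 3 MTA2 and 5 RBBP4 peaks. POU3F2, a neural POU factor gene, likewise had 3, of 6160, 3076 and 3053 bp. In all 10 pairs of neighbouring broad peaks lay within 1 kb of each other, 17 within 10 kb and 49 within 100 kb.

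Broad peaks were almost always acetylated. An H3K27ac peak, the mark of active promoters and enhancers, overlapped 773 of 796 broad peaks (97.1%, 95.7 to 98.1%), against 55.5% (54.7 to 56.3%) of narrower peaks and 57.6% of all peaks without H3K27me3. These intervals, and those that follow for shares, are 95% Wilson intervals over peaks and cover counting error only, since each target has 1 list and no replicate. A wider peak offers more room for overlap, so each share was repeated in a window of 500 bp on either side of the H3K4me3 summit. In that window H3K27ac was present at 93.6% of broad peaks, 57.5% of narrower ones and 86.5% of those from 2000 to under 3000 bp. It covered 54.5% of the base pairs of broad peaks and 33.0% of those of narrower peaks. The coverage of a broad peak had a median of 52.5%, 78 of 796 were covered over more than 90% of their length and 85 over at most 25% but more than none. H3K27ac peaks overlapping broad peaks had a median fold of 10.5 and a median width of 1027.5 bp, those overlapping narrower peaks 8.46 and 584 bp.

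Acetylation differed along the width classes as well. H3K27ac overlapped 32.6% of peaks under 1000 bp, 65.4% of those from 1000 to under 2000 bp, 89.8% of those from 2000 to under 3000 bp and 97.1% of broad peaks. Within the broad peaks, median H3K27ac coverage was 50.1% for 581 peaks under 4000 bp, 58.8% for 145 from 4000 to under 5000 bp and 70.9% for 70 of at least 5000 bp. The 23 broad peaks without any H3K27ac peak were led by SBF2 and ADM (5825 bp), SOBP (4425 bp), TMEFF2 (4272 bp), NR2F1 (4140 bp), HES7 (4017 bp), EXT1 (3957 bp), TENT5A (3870 bp) and CYP26B1 (3839 bp). NR2F1, an orphan nuclear receptor gene, HES7, a clock gene of somite formation, and CYP26B1, which degrades retinoic acid, are regulators of development. Each of these 8 carried HDAC2, which 89.9% of all broad peaks did, with 1 to 3 HDAC2 peaks apiece.

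H3K4me1, the mark of enhancers and of promoter flanks, kept to the edges of broad peaks. It overlapped 121 of 796 broad peaks (15.2%, 12.9 to 17.9%), 4.27% (3.96 to 4.61%) of narrower peaks and 4.82% of all. Within 500 bp of the H3K4me3 summit it was present at 2 broad peaks (0.251%, 0.0689 to 0.911%) and at 3.38% (3.10 to 3.68%) of narrower ones. Of 61 H3K4me1 summits inside broad peaks 56 (91.8%, 82.2 to 96.4%) lay within 20% of the peak's width from an edge, against 65.9% (59.2 to 72.0%) of 208 in narrower peaks. An H3K4me1 peak reached into the 1 kb outside an edge at 261 broad peaks (32.8%, 29.6 to 36.1%), 12.7% of narrower peaks and 13.7% of all, and at both edges of 40 broad peaks (5.03%). Examples with H3K4me1 inside were TFAP2B and CAV1, with 2 peaks each.

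At least 1 NuRD subunit was found at 753 broad peaks (94.6%), 65.4% of narrower peaks and 66.9% of all, but the subunits differed. HDAC2, a catalytic deacetylase subunit, overlapped 716 broad peaks (89.9%, 87.7 to 91.9%), 55.3% of narrower peaks and 57.0% of all. RBBP4, a histone-binding WD40 protein also present in Polycomb and Sin3 complexes, overlapped 551 (69.2%, 65.9 to 72.3%), 29.7% and 31.6% of the same sets. MTA2, a scaffold subunit of NuRD, overlapped 430 (54.0%, 50.5 to 57.5%), 29.4% and 30.7%. CHD4, the ATPase of the complex, overlapped 329 (41.3%, 37.96 to 44.8%), 15.4% and 16.7%. Peaks from 2000 to under 3000 bp stood between, with HDAC2 at 81.3%, RBBP4 at 52.5%, MTA2 at 44.1% and CHD4 at 24.1%. The order of the subunits cannot be read apart from the lists, with 20633 peaks for HDAC2, 13725 for RBBP4, 13462 for MTA2 and 13288 for CHD4, and a smallest −log10 p of 7.01 for RBBP4 and about 9 for the others. When all had to reach a −log10 p of 15, MTA2 was at 41.5% of broad peaks and RBBP4 at 33.7%, the other way round. Subunit peaks overlapping broad peaks had lower median folds than those outside H3K4me3 peaks. The medians were 4.04 against 4.84 for CHD4, 4.88 against 5.53 for HDAC2, 6.34 against 6.75 for MTA2 and 3.85 against 4.79 for RBBP4.

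The subunits differed in the fixed window, which has the same width at every peak but runs beyond those under 1000 bp. Within 500 bp of the summit HDAC2 was present at 80.2% (77.2 to 82.8%) of broad and 57.1% (56.3 to 57.9%) of narrower peaks, and RBBP4 at 48.2% (44.8 to 51.7%) of broad and 30.1% of narrower peaks. CHD4 was present at 24.4% (21.5 to 27.5%) of broad and 15.5% (15.0 to 16.1%) of narrower peaks. MTA2 was present at 33.0% (29.9 to 36.4%) of broad and 30.2% (29.5 to 31.0%) of narrower peaks, and these intervals overlapped. From 2000 to under 3000 bp HDAC2 had 75.6% (73.9 to 77.4%) and RBBP4 43.4% (41.4 to 45.4%). In that class CHD4 had 16.2% (14.7 to 17.7%) and MTA2 34.5% (32.5 to 36.4%). Of these 4 intervals only that of CHD4 lay apart from the one of broad peaks. CHD4 and RBBP4 were also denser per kb in broad peaks, with 0.150 (exact Poisson interval 0.137 to 0.165) for CHD4 in broad and 0.102 (0.0979 to 0.107) in narrower peaks, and 0.282 (0.263 to 0.301) for RBBP4 in broad and 0.218 (0.212 to 0.225) in narrower peaks. In the class from 2000 to under 3000 bp CHD4 had 0.112 (0.103 to 0.121), below broad peaks, and RBBP4 0.260 (0.247 to 0.274), an interval that overlaps that of broad peaks. Broad peaks held 0.150 MTA2 summits per kb (0.136 to 0.164) against 0.161 (0.156 to 0.167) in narrower peaks. They held fewer HDAC2 summits (0.386, 0.365 to 0.409, in broad and 0.423, 0.414 to 0.433, in narrower) and H3K27ac summits (0.390 in broad, 0.482 in narrower) per kb. HDAC2 peaks nevertheless covered 31.7% of the base pairs of broad peaks and 25.5% of those of narrower peaks.

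**Figure D2:**
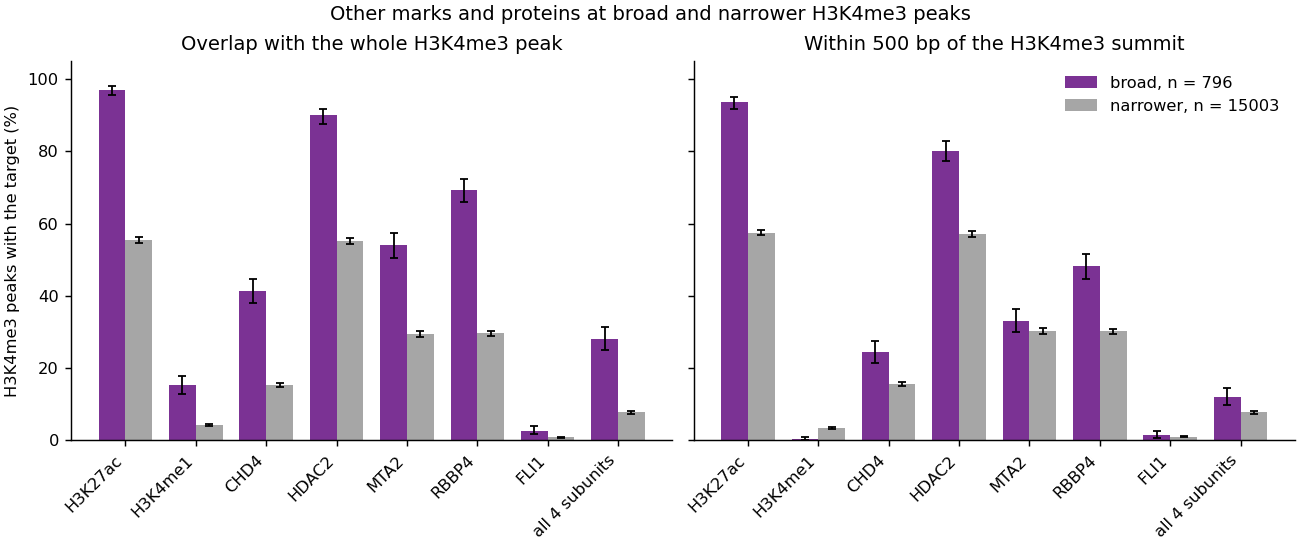
Percent of broad (purple, n = 796) and narrower (grey, n = 15003) H3K4me3 peaks with each target, by overlap with the whole peak (left) and within 500 bp of the H3K4me3 summit (right); error bars are 95% Wilson intervals over peaks. H3K4me1 was at 15.2% of broad and 4.27% of narrower peaks on the left, and at 0.251% and 3.38% on the right. Peaks from 2000 to under 3000 bp, not drawn apart, had 0.259% in the window. MTA2 differs little on the right.

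All 4 subunits met at 224 broad peaks (28.1%, 25.1 to 31.4%), 7.77% of narrower peaks and 8.80% of all, and within the fixed window at 11.9% (9.86 to 14.4%) of broad and 7.77% of narrower peaks. From 2000 to under 3000 bp the shares were 14.6% (13.2 to 16.0%) by overlap and 8.77% (7.68 to 9.99%) in the window. That window interval overlapped the one of broad peaks. The most common smaller set at broad peaks was HDAC2 with RBBP4 (126 peaks, 15.8%, against 8.29% of narrower peaks). HDAC2, MTA2 and RBBP4 followed (107, 13.4% against 6.03%). HDAC2 alone (94, 11.8%) was rarer than in narrower peaks (19.0%). CHD4, HDAC2 and RBBP4 had 74 (9.30% against 3.19%). CHD4 was found without HDAC2 at few peaks of either kind. CHD4 alone was at 2 broad peaks (0.251%) and 0.720% of narrower ones. CHD4 with RBBP4 was at 1 broad peak (0.126%) and 0.480% of narrower ones. Broad peaks with all 4 subunits had a median H3K27ac coverage of 61.6% and a share of 21.9% with H3K4me1. The members with most NuRD summits per kb were the 4428 bp MEIS1 peak (3.61 per kb), RGMB (3.35), LAMC1 (3.32), IER5L (3.16), MAPK6 (2.98), PTK2 (2.90), ATP1B3 (2.81), DLX2 (2.67), JADE2 (2.65) and HOXD11 (2.63). RGMB, a BMP co-receptor gene, held this density with 0% H3K27ac coverage, while LAMC1, a laminin gene, had 47.1%, HOXD11 98.5% and MEIS1 100%.

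No subunit was found at 43 broad peaks (5.40%, 4.04 to 7.20%), against 34.6% of narrower peaks and 33.1% of all. The share was 51.1% of peaks under 1000 bp and 11.2% (9.96 to 12.5%) of those from 2000 to under 3000 bp. After MEIS1 (6364 bp) the widest were ZNFX1 with the noncoding RNA ZFAS1 (5752 bp), APCDD1 (5561 bp), RCC1 with SNHG3 (5291 bp), TRA2B (4662 bp), CDH11 (4601 bp), ADRB1 (4491 bp), HNRNPA1 (4201 bp), HNRNPH1 (4045 bp) and ERH with SLC39A9 (3780 bp). TRA2B, HNRNPA1 and HNRNPH1 encode splicing factors, and ZFAS1 and SNHG3 are hosts of small nucleolar RNAs. Of the 43 peaks 41 had H3K27ac (95.3%, 84.5 to 98.7%), near the 97.1% of all broad peaks, with a median coverage of 46.5% against 52.5%.

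FLI1 was found at few broad peaks. It overlapped 20 of 796 (2.51%, 1.63 to 3.85%), 0.820% (0.688 to 0.977%) of narrower peaks and 0.905% of all, and in the fixed window 1.38% (0.773 to 2.46%) of broad and 0.933% of narrower peaks, where the intervals overlapped. The FLI1 list, with 1561 peaks and a smallest −log10 p of 5.02 does not say whether a peak stems from the fusion or from other FLI1. A FLI1 summit lay inside 14 broad peaks (1.76%, 1.05 to 2.93%) and 0.493% of narrower ones. The strongest FLI1 peaks overlapping broad peaks, by −log10 p, were at KCNE3, a potassium channel subunit gene (FLI1 fold 22.1), and near RDX (11.8, nearest start 58.436 kb away). Next were those near BDP1 (10.98, 17.019 kb) and at TMEM229A (12.4). FEZF1 (7.65), a peak near HOOK1 (6.42), LHFPL6 (6.63), THAP4 with ATG4B (6.50), MIDN (6.22) and CAPN15 (6.08) followed. At KCNE3, RDX, BDP1, TMEM229A and MIDN the FLI1 summit lay outside the H3K4me3 peak. Its distance from the edge was 0.418, 0.089, 0.074, 0.116 and 0.138 kb in that order. All 20 had H3K27ac, as did 97.0% of the 776 broad peaks without FLI1, with a median coverage of 70.9% against 52.2%. All 4 subunits were found at 10 of 20 (29.9 to 70.1%) and at 27.6% (24.5 to 30.8%) of those without FLI1, and these intervals overlapped.

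FLI1 was also counted around the peaks by the distance of its summit, in nested windows that include summits inside. A FLI1 summit lay within 10 kb of 63 broad peaks (7.91%, 6.23 to 10.0%) and 2.39% (2.15 to 2.64%) of narrower ones. Within 50 kb the shares were 16.2% (13.8 to 18.9%) of broad and 6.71% (6.32 to 7.12%) of narrower peaks. Within 100 kb they were 176 broad peaks (22.1%, 19.4 to 25.1%), 11.7% (11.2 to 12.2%) of narrower peaks and 12.2% of all. The gap from known fusion targets to the nearest FLI1 summit varied widely. It was 0.825 kb at CAV1, 0.877 kb at NR0B1, 1.164 kb at HES1, 2.067 kb at LIPI and 2.771 kb at RBM11. It was 31.76 kb at NKX2-2, 335.854 kb at SOX2 and 374.378 kb at GLI1. Only some of the known targets with a broad peak are given here.

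Broad peaks sat on gene starts. A protein-coding start lay within 1 kb of 729 broad peaks (91.6%, 89.4 to 93.3%), 79.5% (78.9 to 80.2%) of narrower peaks and 80.1% of all, and in the class from 2000 to under 3000 bp the share was 92.9%. For 81 of the 729 the gene had no start in the promoter table and was placed by either annotated end. At least 2 coding genes had a start inside 136 broad peaks (17.1%, 14.6 to 19.9%), 5.57% of narrower peaks and 6.15% of all, and 18.3% of peaks from 2000 to under 3000 bp. A long noncoding RNA start lay within 1 kb of 198 broad peaks (24.9%, 22.0 to 28.0%) and 17.2% (16.6 to 17.8%) of narrower ones. From 2000 to under 3000 bp the share was 22.5% (20.8 to 24.2%), an interval that overlaps that of broad peaks. Such a start without a coding start within 1 kb was found at 2.51% (1.63 to 3.85%) of broad and 3.40% (3.12 to 3.70%) of narrower peaks. Coding genes with a broad peak had a median length of 37.9 kb, those with a narrower peak 30.6 kb.

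No coding start lay within 1 kb of 67 broad peaks, and none within 5 kb of 55, of which 18 held a noncoding RNA start. The 67 had CHD4 at 61.2% (49.2 to 72.0%) and all 4 subunits at 41.8% (30.7 to 53.7%), whereas the 729 near a start had CHD4 at 39.5% (36.0 to 43.1%) and all 4 at 26.9% (23.8 to 30.2%). The median H3K27ac coverage of the 67 was 71.3%, against 51.7% for those near a start. FLI1 overlapped 5 of 67 (7.46%, 3.23 to 16.3%) and 15 of 729 near a start (2.06%, 1.25 to 3.37%), and these intervals overlapped. After MALAT1, the widest without a coding start within 5 kb were a 5809 bp peak over the starts of MIR9-2HG, a host of the neural microRNA miR-9, and MEF2C-AS2, a 5586 bp peak near HOOK1 and a 4814 bp peak near an uncharacterised locus. Peaks near DST (4692 bp), GSE1 (4484 bp), BCOR (4290 bp) and TENM2 (4255 bp) and 2 of the MEIS1 peaks completed the 10 widest.

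Reach on either side of the start was measured in 323 broad peaks that held the start of 1 coding gene and no noncoding or opposing start. They extended a median of 821 bp upstream (quartiles 345.5 and 1217) and 2790 bp downstream (2291 and 3366.5) of the most upstream start. Of these 300 (92.9%, 89.5 to 95.2%) reached farther into the gene than away from it, against 90.01% (89.2 to 90.8%) of 5713 narrower peaks and 90.2% of all such peaks. The downstream lean was thus shared by narrower peaks. For a gene with several starts in the peak, the choice of the most upstream one favours a longer downstream reach in both groups. How much of the lean comes from that choice was not tested. SNX18, CPEB2 and EBF3 reached 7393, 6904 and 6606 bp downstream with 19, 80 and 25 bp upstream, TFAP2B 8044 bp downstream and 2226 bp upstream, and LIPI 5098 bp downstream and 299 bp upstream. LRFN5 was nearly even, with 3445 bp downstream and 3701 bp upstream, and NRN1 leaned the other way, with 779 bp downstream and 5592 bp upstream.

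**Figure D3:**
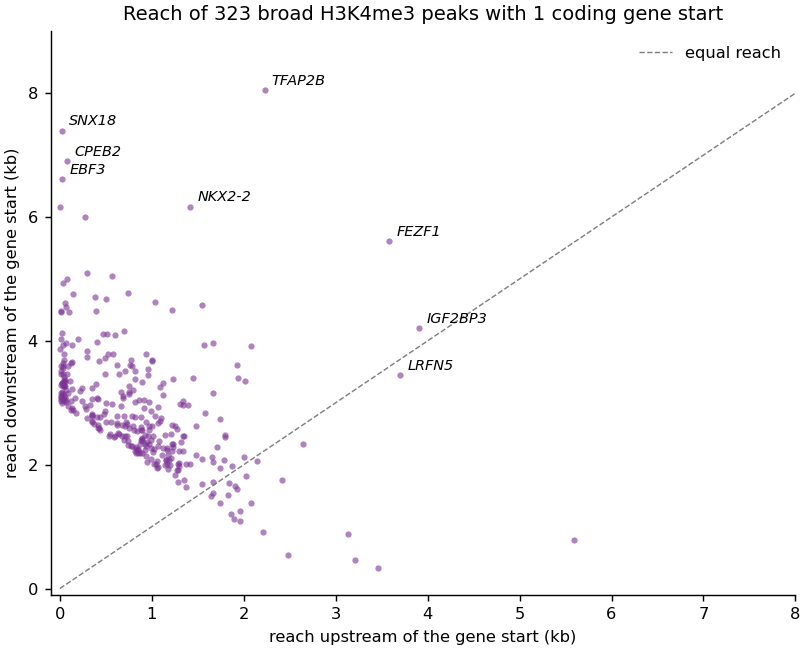
Each point is 1 of 323 broad H3K4me3 peaks with the start of 1 coding gene inside, by reach in kb upstream (x axis) and downstream (y axis) of that start, with equal reach as the dashed line and the 8 widest named. Of the 323 points 300 lie above the line, and SNX18, CPEB2 and EBF3 lie along the left edge; the empty lower left corner is set by the width threshold.

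The other targets were arranged around the start in those 323 peaks. MTA2 gathered just before it, with 96 of 181 summits (53.0%) in the last 500 bp before the start, a density of 0.761 per kb (0.616 to 0.929) that compares with 0.124 (0.0757 to 0.192) in the first 500 bp after it. RBBP4 also stood highest in the last 500 bp before the start, at 0.729 per kb (0.588 to 0.894), and remained at 0.363 from 500 to 1000 bp and 0.267 from 1000 to 2000 bp after it. CHD4 had 0.364 per kb (0.267 to 0.486) before the start and 0.174 (0.115 to 0.251) after it. HDAC2 was high on both sides, at 0.784 per kb (0.637 to 0.955) before and 0.682 (0.561 to 0.822) after. H3K27ac summits stood highest in the first 500 bp after the start, at 1.08 per kb (0.924 to 1.25) against 0.610 (0.481 to 0.762) before. H3K4me1 had no summit between 2000 bp before and 1000 bp after the start and 0.0822 per kb (0.0302 to 0.179) from 3000 to 4000 bp after it.

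**Figure D4:**
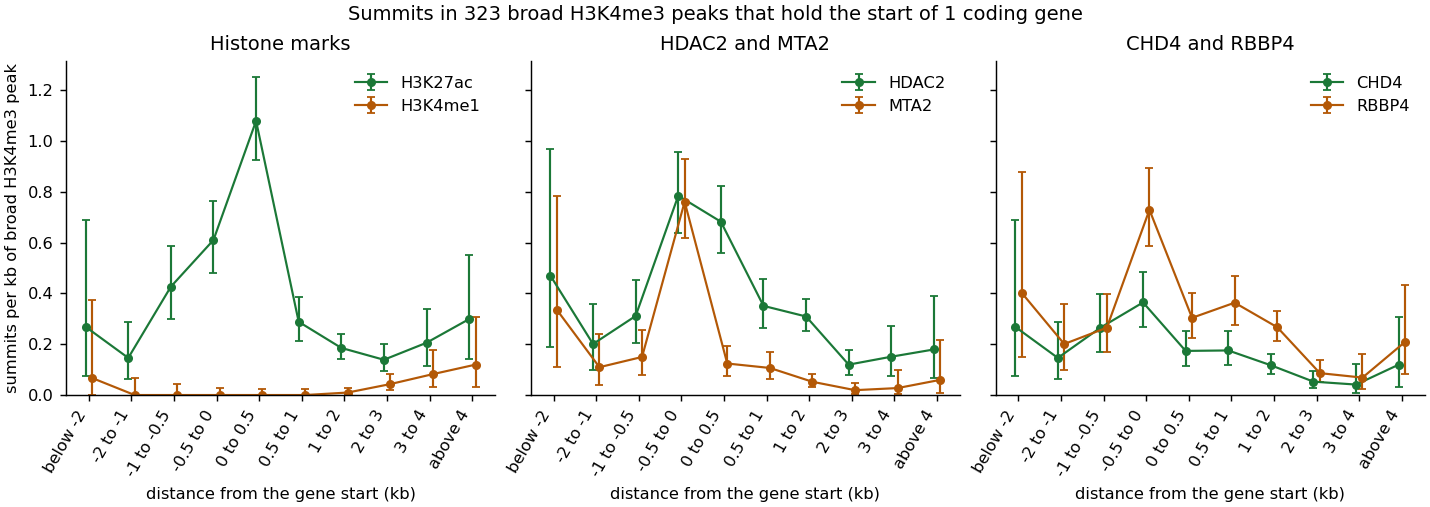
Summits per kb of broad H3K4me3 peak (y axis) in bins of distance from the gene start in kb (x axis, negative upstream) for 323 broad peaks with 1 coding start; points are densities and bars exact 95% Poisson intervals over summits. MTA2 is highest in the last bin before the start (0.761 per kb) and H3K27ac in the first bin after it (1.08 per kb), and the outermost bins rest on few summits.

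Of 20037 coding genes 883 (4.41%) had a broad peak within 1 kb of a start, and of the 11450 with any H3K4me3 peak free of H3K27me3 7.71% had a broad one. Genes known to be activated by EWSR1::FLI1 had one in 19 of 39 cases (48.7%, 33.9 to 63.8%). Among the widest of these were NKX2-2, SLCO5A1 (6509 bp), BCL11B (6194 bp), CAV1 (5669 bp), LIPI (5398 bp), RBM11 (4606 bp) and NR0B1 (4583 bp), with EZH2 (3846 bp), ID2 (3825 bp), HES1 (3602 bp) and CCND1 (3213 bp) further down. Genes known to be repressed by the fusion had one in 4 of 28 cases (14.3%, 5.70 to 31.5%), namely CDH11 (3829 bp), FOXO1 (3461 bp), VIM (3156 bp) and FN1 (3111 bp). The 2 intervals for activated and repressed genes do not overlap, but they do with peaks joined within 1000 bp (33.9 to 63.8% and 10.2 to 39.5%) and at a width of at least 4000 bp (10.8 to 35.5% and 0 to 12.1%). All lists were written with earlier results of these data known and several share genes, so these shares describe the lists and test nothing.

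NR0B1 and LIPI illustrate how unlike each other such targets are. The NR0B1 peak (chrX:30305279-30309861) was 28.3% covered by H3K27ac and held 2 HDAC2 and 1 RBBP4 peaks. LIPI, a phospholipase gene used as an Ewing marker (chr21:14205857-14211254), was 100% covered and held 3 CHD4 and 3 RBBP4 peaks but no HDAC2 or MTA2 peak. CAV1, the caveolin gene (chr7:116523974-116529642), was 75.2% covered and held all 4 subunits. RBM11, a splicing regulator gene 4.837 kb from the LIPI peak, was 71.1% covered and also held all 4.

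Transcription factor genes of the Ewing circuit and the neural crest had a broad peak in 15 of 47 cases (31.9%, 20.4 to 46.2%). TFAP2B, TFAP2A, NKX2-2, MEIS1 and BCL11B led the list, followed by MYC (6144 bp), ZEB2 (5008 bp) and SOX11 (4470 bp). MYC, placed by either annotated end, was 80.2% covered by H3K27ac and held 4 MTA2 peaks. Signalling genes had one in 15 of 46 cases (32.6%, 20.9 to 47.0%), among them IRS2, BMPR2 (4507 bp), FZD1 (4016 bp), SMAD6 (3958 bp), WNT5A (3626 bp), PTCH1 (3304 bp), IRS1 (3303 bp) and IGF1R (3128 bp), the receptor that signals through IRS1 and IRS2.

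Genes of general cell functions also had larger shares than the 4.41% of all genes. Ribosomal protein genes had a broad peak in 17 of 78 cases (21.8%, 14.1 to 32.2%), led by RPL7 (5104 bp), RPL39 (4249 bp), RPL3 (4201 bp) and RPS18 (4193 bp), and housekeeping genes in 8 of 34 (23.5%, 12.4 to 39.996%), led by ENO1 (4609 bp), YWHAZ (4224 bp) and TBP (3782 bp). Cell cycle genes had 6 of 43 (14.0%, 6.56 to 27.3%), led by RRM2 (4217 bp), WEE1 (3994 bp) and CCNE2 (3750 bp), and immediate early genes 4 of 33 (12.1%, 4.82 to 27.3%), which were MYC, MCL1 (3646 bp), JUN (3616 bp) and DUSP1 (3189 bp). Of the genes with any H3K4me3 peak, the broad share was 22.7% for ribosomal protein and 25% for housekeeping genes. It was 14.3% for cell cycle and 13.3% for immediate early genes, beside 7.71% of all marked genes.

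Tumour suppressor genes had a broad peak in 11 of 48 cases (22.9%, 13.3 to 36.5%). CDKN2C (6130 bp), a CDK4 and CDK6 inhibitor, ZFP36L1 (3914 bp), ARID1B (3902 bp), ARID1A (3887 bp) and CDKN1B (3848 bp) were among the widest. CDKN2A had 3051 bp. Any H3K4me3 peak was present at 89.6% of the tumour suppressor list, and of those marked genes 25.6% had a broad one, beside 57.6% of marked genes activated by the fusion and the 7.71% of all marked genes.

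Genes of chromatin regulators were also counted. The H3K4 methylation machinery had 5 of 28 genes in broad peaks (17.9%, 7.88 to 35.6%), namely HCFC1 (5065 bp), KMT2D (3987 bp), CHD1 (3455 bp), DPY30 (3281 bp) and BPTF (3127 bp). Polycomb genes had 2 of 28 (7.14%, 1.98 to 22.6%), JARID2 (4478 bp) and EZH2. NuRD subunit genes had 1 of 15 (6.67%, 1.19 to 29.8%), HDAC2 (3360 bp), although all 15 had an H3K4me3 peak. Genes specific to other tissues had 0 of 30 (upper bound 11.4%), and 3 of these 30 had any H3K4me3 peak.

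**Figure D5:**
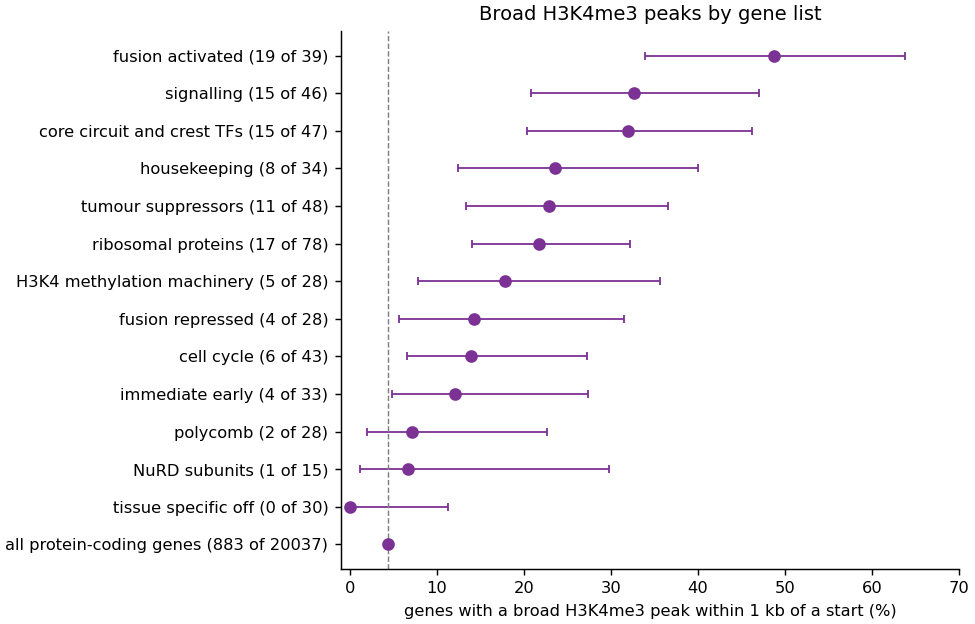
Percent of each gene list with a broad H3K4me3 peak within 1 kb of a start (points) with 95% Wilson intervals over genes (bars); the dashed line is the 4.41% over all coding genes, and the counts stand beside each name. Genes activated by the fusion lie highest at 48.7% and genes specific to other tissues at 0%.

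Broad peaks were unevenly spread over the chromosomes. They made up 9.27% (6.53 to 13.0%) of H3K4me3 peaks without H3K27me3 on chromosome 13, with 29 of 313, and 9.10% (7.40 to 11.1%) on chromosome 6, with 83 of 912. On chromosome 19, which is rich in genes, they made up 1.43% (0.885 to 2.32%), with 16 of 1115.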

How the data were processed

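A ChIP-seq peak list for each of 9 targets in SK-N-MC cells was analysed, with the target taken from the sample labels. The submitters' processing notes name BWA 0.7.17 and GRCh38, beside SAMtools 1.9, bedtools 2.27.1, deepTools 3.2.1, FastQC 0.11.7 and Trimmomatic 0.36. The deposited names of the peaks contain MACS2. Not given in the sources used here were its version, the control, pooling and excluded regions. The authors' peak caller wrote for every peak a ratio, the fold enrichment over local background, and the −log10 of its p-value and q-value. The −log10 q entered no result. Without read counts in the deposited files the depth behind a peak is unknown, and a site without a peak may be a site missed.

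Peaks sharing at least 1 bp were counted as overlapping. Broad peaks were H3K4me3 peaks of at least 3000 bp with no H3K27me3 overlap, and were set beside the narrower H3K4me3 peaks without H3K27me3. Intervals are 95% Wilson for shares and exact Poisson for summits per kb, and no test was run because each target has 1 list. Neighbouring peaks share loci and are not independent. Starts came from RefSeq promoters of GRCh38.p14 for 15843 of 20037 coding genes; 4194 others, 715 of them on chromosome 8, were placed by either annotated end. Of 498 entries in 13 gene lists 497 matched by symbol. The members and the lists were chosen with earlier results of these data known. Named were the 20 widest members, 5 on each side of the threshold, up to 8 widest members per list, the 10 with the strongest FLI1 peak, the 10 densest in NuRD summits, and up to 10 widest without H3K27ac, without NuRD or far from a coding start. Some genes under this rule are not reported here. Other genes, those in the printed sequences included, were chosen after their values were seen. The alternatives were other width thresholds, joined peaks, H3K27me3 kept, chromosome 8 left out, a stricter −log10 p of at least 15, and other overlap and start rules. Python 3.11.15 with numpy 2.4.6, pandas 2.3.3, scipy 1.17.1 and matplotlib 3.10.9 was used, and overlap counting was checked on simulated peaks with planted overlaps.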

Additional observations from a re-analysis of the deposited data

How the results depend on the processing

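Of 188 recomputed values for 31 results 122 stayed within their counting interval or, for counts, within 1.5 times, and 66 moved. None moved with H3K27me3 kept, with chromosome 8 left out or with starts within 5000 bp; with the start inside the peak 86.6% of broad peaks were near one. No paired analysis was possible because each target had 1 sample, and for the same reason no sample could be left out. The gaps between broad and narrower peaks rest on lists without depth, so a missed weak peak cannot be told from an absent one.

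With a width of at least 2500 bp there were 1540 broad peaks, with CHD4 at 35.8%, H3K4me1 at 11.6%, RBBP4 at 64.3%, all 4 subunits at 23.7% and 0.426 H3K27ac summits per kb, and broad peaks at 8.59% of coding genes, 35.9% of ribosomal protein and 52.2% of signalling genes. With at least 4000 bp there were 215, with CHD4 at 52.6%, H3K4me1 at 23.7%, MTA2 at 59.1%, RBBP4 at 77.2% and all 4 at 37.2%, and summits per kb of 0.344 for H3K27ac, 0.357 for HDAC2 and 0.132 for MTA2. They then marked 1.17% of coding genes, 20.5% of fusion-activated, 19.1% of circuit and crest, 6.52% of signalling, 5.88% of housekeeping, 5.13% of ribosomal protein, 4.17% of tumour suppressor, 3.57% of H3K4 machinery, 3.03% of immediate early and 2.33% of cell cycle genes, and 0% of fusion-repressed and NuRD genes.

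Joining peaks within 1000 bp gave 1303 broad peaks, 93.7% near a start, 95.4% with H3K27ac, 58.0% with MTA2, 0.428 H3K27ac and 0.172 MTA2 summits per kb, and broad peaks at 7.60% of coding and 39.4% of immediate early genes.

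When peaks of the other target had to reach a −log10 p of 15, shares were 27.8% for CHD4, 0.879% for FLI1, 8.92% for H3K4me1, 84.7% for HDAC2, 41.5% for MTA2, 33.7% for RBBP4 and 13.9% for all 4, and summits per kb 0.0848 for CHD4, 0.00099 for FLI1, 0.359 for H3K27ac, 0.0109 for H3K4me1, 0.320 for HDAC2, 0.102 for MTA2 and 0.0974 for RBBP4. Within 500 bp of the summit shares were 24.4% for CHD4, 1.38% for FLI1, 93.6% for H3K27ac, 0.251% for H3K4me1, 80.2% for HDAC2, 33.0% for MTA2, 48.2% for RBBP4 and 11.9% for all 4. Counting a target by its summit inside the peak gave 94.97% for H3K27ac, 6.78% for H3K4me1, 87.1% for HDAC2, 47.9% for MTA2 and 24.1% for all 4. The cause of these shifts was not tested beyond what the wider, stricter or smaller search fixes.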
